A study of Mus musculus with 6 samples.

Results

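Promoters that carried an H3K4me3 peak in a mouse pro-T cell line, with no overlapping peak in a mouse progenitor B cell line, were collected as 1642 regions. To obtain them, the H3K4me3 peaks of the T-lineage line Scid.adh.2C2 (15513 peaks) and of the B-lineage line 230-238 (19604 peaks) were merged wherever they overlapped by 1 bp or more. This gave 22625 merged regions, of which 14572 reached into a promoter window, defined as the 2500 bp either side of any transcription start site (TSS) in the GENCODE annotation of the mouse genome GRCm38. The 1642 regions, called Scid.adh.2C2-only promoters below, are those with a peak from Scid.adh.2C2 alone. They made up 11.3% of the merged promoter regions, whereas 9672 held peaks of both lines and 3258, or 22.4%, held peaks of 230-238 alone. Because the regions were chosen by the presence of a peak in one list and its absence from the other, their peak values are given as a description and no test was applied to them.

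The study compared regulatory landscapes in lymphoid progenitors, and H3K4me3 was used to define which promoters were marked. H3K4me3 ChIP-seq was carried out on 2 ChIP libraries and 1 input library of each line, with the same antibody and no treatment. Scid.adh.2C2 is a DN3-like T-cell progenitor line, a subclone of the Scid.adh line that arose as a spontaneous thymic lymphoma in a CB17-Prkdc scid mouse, and 230-238 is a progenitor B line transformed with the Abelson virus. Each group is thus a single tumor-derived or virus-transformed line, and a property of the line cannot be told apart from one of its lineage. The authors combined the replicates of a line into 1 peak list, which holds no read counts and no value per replicate, so that the depth of the libraries and the spread between replicates are unknown. A promoter without a 230-238 peak is therefore one at which no peak passed the thresholds of the authors in that line, and loss of the DNA itself in the cultured line cannot be told apart from the lack of the mark.

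Trimethylation of lysine 4 on histone H3 is laid down around the start sites of active and poised genes, mostly in the nucleosomes just downstream of the TSS. It is recruited in large part by unmethylated CpG dinucleotides, so that CpG-rich promoters of broadly expressed genes carry it in most cell types, while CpG-poor promoters tend to gain it where tissue-restricted factors activate them. In the thymus, Notch signals and the factors TCF1, GATA3 and BCL11B direct early progenitors into the T-lineage, after which the genes of the pre-T cell receptor and its signaling chain are switched on.

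The promoters of 4 genes show how different the DNA at the TSS nearest to a Scid.adh.2C2-only summit can be. Thy1, a surface glycoprotein of thymocytes, is the most enriched region of the low CpG class, Cd3e, a signaling chain of the T cell receptor, is the most enriched of the T cell receptor genes, Gata3 holds the most enriched peak among the T-lineage factors, and Rps18, a protein of the small ribosomal subunit, is the most enriched region of the high CpG class. The sequences are from the RefSeq copy of GRCm38, run 5′ to 3′ on the strand of the gene from 250 bp before to 29 bp after the TSS nearest to the summit, and have every CpG in capitals. At Thy1 this TSS lies inside the gene, and the peak also covers the 5′ end of the gene at chr9:44043384, which is not shown. They lie at chr9:44044934-44045213 (plus strand, Thy1), chr9:45009584-45009863 (minus strand, Cd3e), chr2:9889511-9889790 (minus strand, upstream peak of Gata3, whose summit is nearest to the TSS of 9230102O04Rik inside the Gata3 gene) and chr17:33955183-33955462 (minus strand, Rps18).
Thy1: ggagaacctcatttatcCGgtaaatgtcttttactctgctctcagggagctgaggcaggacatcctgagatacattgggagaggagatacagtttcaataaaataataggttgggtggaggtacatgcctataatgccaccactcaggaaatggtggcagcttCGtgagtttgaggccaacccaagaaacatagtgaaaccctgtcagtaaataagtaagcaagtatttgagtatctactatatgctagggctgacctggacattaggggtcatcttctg
Cd3e: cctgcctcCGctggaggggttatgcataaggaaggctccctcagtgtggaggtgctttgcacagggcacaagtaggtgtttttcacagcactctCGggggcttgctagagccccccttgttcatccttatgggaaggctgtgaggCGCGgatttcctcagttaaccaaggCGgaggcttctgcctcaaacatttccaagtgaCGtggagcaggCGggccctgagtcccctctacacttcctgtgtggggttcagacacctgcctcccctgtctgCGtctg
Gata3 upstream peak (9230102O04Rik TSS): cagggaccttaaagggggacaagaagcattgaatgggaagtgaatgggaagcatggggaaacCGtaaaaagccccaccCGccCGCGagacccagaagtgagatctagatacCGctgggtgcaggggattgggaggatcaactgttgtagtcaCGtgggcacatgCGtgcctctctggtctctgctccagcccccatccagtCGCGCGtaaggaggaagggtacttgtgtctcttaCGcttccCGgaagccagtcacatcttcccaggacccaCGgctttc
Rps18: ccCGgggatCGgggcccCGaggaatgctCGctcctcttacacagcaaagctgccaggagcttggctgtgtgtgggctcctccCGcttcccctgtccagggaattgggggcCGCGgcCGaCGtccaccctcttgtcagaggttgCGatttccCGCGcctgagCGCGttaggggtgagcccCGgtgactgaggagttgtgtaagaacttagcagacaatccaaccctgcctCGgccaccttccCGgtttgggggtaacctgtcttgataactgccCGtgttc

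The 280 bases held 2 CpGs at Thy1, 8 at Cd3e, 13 at the upstream Gata3 peak and 18 at Rps18, with a GC content of 44.3%, 58.2%, 57.1% and 62.5%. In the 300 bp at the summit, the counts were 5 at Thy1, 6 at Cd3e, 11 at the upstream Gata3 peak and 5 at Rps18. The summits of Thy1 and Rps18 thus did not differ in this count. Each being the most enriched of its class or list, the 4 peaks had a fold enrichment of 38.6 for Thy1, 41.5 for Cd3e, 39.9 for Gata3 and 45.4 for Rps18. Judged at the TSS nearest to the summit, a strong peak in Scid.adh.2C2 alone was thus found at both ends of the CpG range.

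Fold enrichment is the height of a peak over the local background of the peak caller, as a ratio. Its median over the 1642 Scid.adh.2C2-only promoters was 11.5, with an interquartile range from 7.67 to 20.5 and a full range from 2.08 to 50.6. In the same list, the 9672 promoter regions shared with 230-238 had a median of 25.7. Of the Scid.adh.2C2-only promoters, 947 were enriched at least 10-fold (57.7%, 95% Wilson interval 55.3% to 60.0%), 432 at least 20-fold and 128 at least 30-fold. Among the shared promoters, 94.9% reached 10-fold. Most of the Scid.adh.2C2-only promoters thus sat in the lower part of the enrichment range, with a tail that reached the level of the shared ones. Intervals of this kind cover counting error only, and neighboring peaks are not independent.

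**Figure D1:**
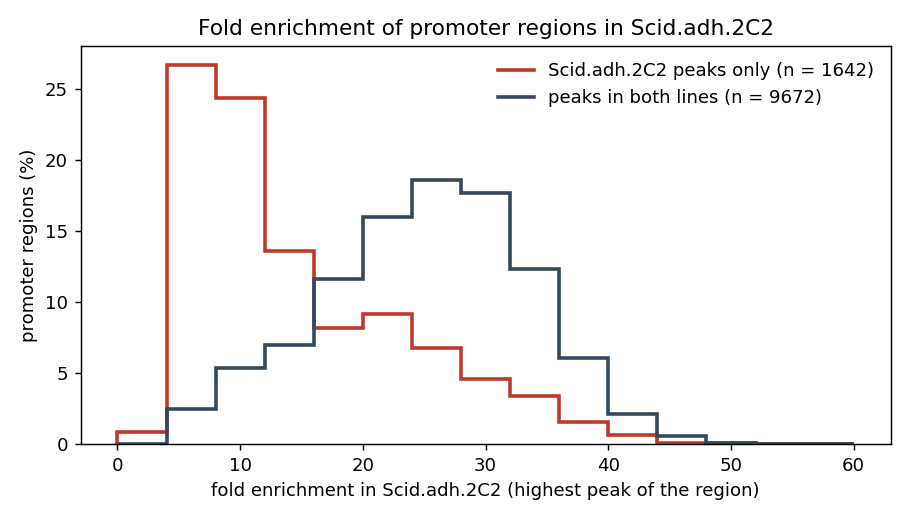
Fold enrichment in Scid.adh.2C2 (x axis, bins of 4) of the promoter regions with Scid.adh.2C2 peaks only (red, 1642 regions) and of those with peaks in both lines (dark blue, 9672 regions), as percent of the regions of each set (y axis). The red curve peaks below 12-fold and the blue one between 24-fold and 28-fold, and the red tail runs beyond 40-fold.

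How often a marked promoter of Scid.adh.2C2 lacked a 230-238 peak differed with the strength of the mark. When the promoter regions of Scid.adh.2C2 were ordered by fold enrichment and divided into deciles, 59.2% of the weakest decile (up to 9.74-fold) lacked a 230-238 peak, 670 of 1132 regions. The share was 32.4% in the next decile and 12.6% in the one after that. In the strongest decile, from 35.0-fold upward, it was 3.89%, which is 44 of 1131 regions. Of the Scid.adh.2C2-only promoters, 1037 thus came from the 2 weakest deciles (63.2%).

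**Figure D2:**
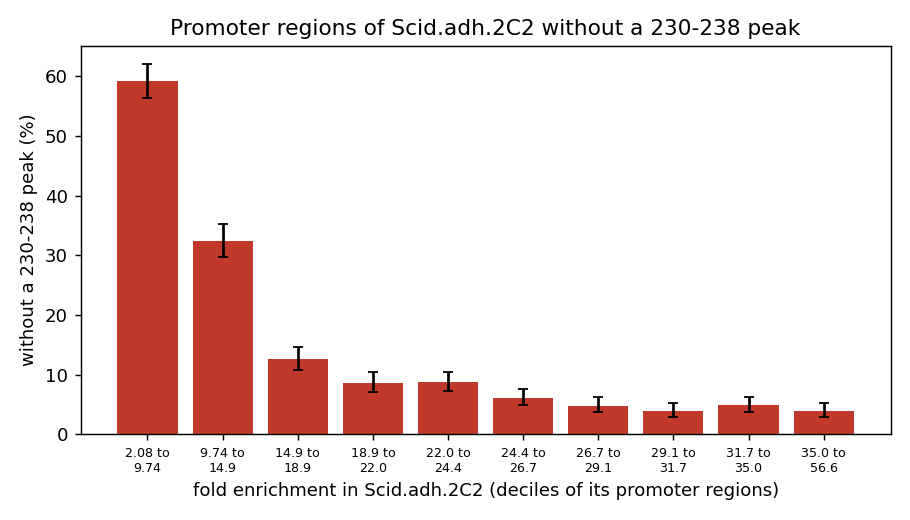
Percent of the promoter regions of Scid.adh.2C2 that lacked a 230-238 peak (y axis), for each decile of these regions by fold enrichment in Scid.adh.2C2 (x axis, from the weakest on the left), with 95% Wilson intervals for counting error. The bars drop from 59.2% in the weakest decile to 3.89% in the strongest.

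The Scid.adh.2C2-only peaks were also narrow. Each of the 1642 regions was a single peak, and their width ran from 190 bp to 9793 bp around a median of 1066 bp, against 1928 bp for the highest peak of the shared promoters. The share wider than 4000 bp was similar in both sets, at 3.35% (55 regions) and 3.64%, while 20.9% of the Scid.adh.2C2-only promoters and 3.19% of the shared ones were narrower than 500 bp. A TSS lay inside the peak at 873 of the Scid.adh.2C2-only promoters (53.2%) and at 87.9% of the shared ones. For the 230-238-only promoters this value was 50.7%.

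Peaks that covered a TSS were mostly stronger and wider than those that did not. The 873 regions with a TSS inside had an interquartile range of fold enrichment from 11.2 to 25.5 and a median width of 1629 bp, while the 769 that only reached into a promoter window from the side had one from 6.58 to 11.1 and a median width of 597 bp. Of the 769, 210 (27.3%) had a 230-238 peak within 1000 bp, while 411 (53.4%) had none within 10000 bp, and the latter had a median enrichment of 8.69 and a median width of 701 bp. Of all 1642 regions, 251 (15.3%) were within 1000 bp of a 230-238 peak without overlapping it, and only 16.3% of these covered a TSS. Their median fold enrichment was 7.98 and their median width 482 bp. At the other end, 1090 regions (66.4%) had no 230-238 peak within 10000 bp, with a median enrichment of 13.4 and a width of 1247 bp, and 374 had none within 100000 bp. The regions therefore mix peaks over a TSS far from any mark of the B-lineage line, weaker peaks beside a TSS that are also far from any such mark, and small flanking peaks next to 230-238 peaks.

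**Figure D3:**
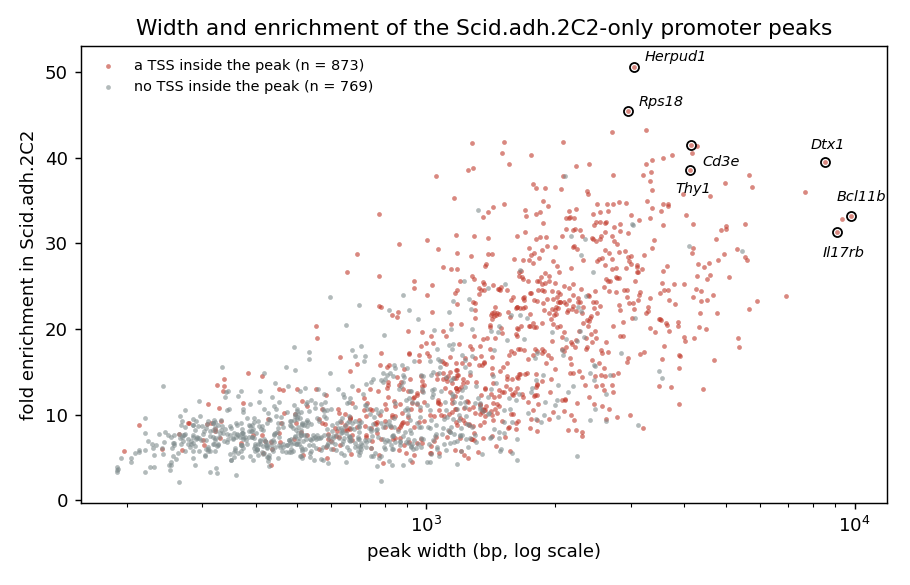
Width (x axis, bp, log scale) and fold enrichment in Scid.adh.2C2 (y axis) of each of the 1642 Scid.adh.2C2-only promoters, with a TSS inside the peak (red, 873) or not (gray, 769). The gray points gather below 10-fold and 1000 bp, while named examples such as Bcl11b (9793 bp, 33.2-fold) and Herpud1 (3054 bp, 50.6-fold) stand at the edges.

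The rule of 1 bp draws a sharp border through closely spaced peaks. The regions nearest to a 230-238 peak were those at Mettl6 (2 bp away, 6.40-fold), at the pseudogene Gm12318 beside Zfp3 (3 bp, 7.32-fold) and at the small RNA gene Gm24041 beside Tmem65 (26 bp, 6.60-fold). Just on the other side, the shared promoter regions with the smallest overlap were those at Nedd4l (71 bp), Aes (103 bp) and 4930522L14Rik (198 bp). At the border of the promoter window, the regions at Gm48868, Gm12646 and Gm15323 came within 2500, 2495 and 2493 bp of a TSS and were included, while those at Gm33882, Csk and Gm47128 stopped at 2502, 2508 and 2509 bp and were not.

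At the level of genes, 1192 of the 21938 protein-coding genes (5.43%) had a Scid.adh.2C2-only promoter, and for 715 of them (3.26%) no promoter window held any 230-238 peak. The other 477 genes had a 230-238 peak at a further TSS or beside the same one. By comparison, 1309 protein-coding genes (5.97%) were marked in 230-238 and not in Scid.adh.2C2, and 8784 were marked in both lines with no Scid.adh.2C2-only region. The split of the 1192 genes followed peak strength: the highest Scid.adh.2C2-only peak had a median enrichment of 19.2 and covered a TSS in 81.5% of the 715 genes, against 9.30 and 35.2% in the 477 genes with a 230-238 peak as well. The line lists were set beside marker genes of the lineages. Like the other gene lists, the markers were chosen with earlier results of these data known, so they are no independent check. The T cell markers also appear in the lists below. Of 10 T cell markers, 8 had a Scid.adh.2C2-only promoter and Lck and Tcf7 were marked in both lines, while of 10 B cell markers none had one. Of the B cell markers, 8 were marked in 230-238 only, and Vpreb1 and Pou2af1 in both lines. None of 8 myeloid markers carried a peak in either line, a state found at 48.5% of all protein-coding genes.

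The genes of the T cell receptor (TCR) complex and its signaling chain held Scid.adh.2C2-only promoters more often than those of any other list apart from the T cell markers. Of 26 genes, 13 had one (50.0%, against 5.43% of all protein-coding genes), and 9 were marked in Scid.adh.2C2 and not in 230-238 (34.6%, against 3.26%). The genes Prkcq and Sh2d2a, 2 of the 26, were marked the other way (7.69%, against 5.97%). Cd3e had the most enriched peak (41.5-fold, 4152 bp, chr9:45008141-45012292). Cd3d and Cd3g, which encode the delta and gamma chains of CD3 and are transcribed away from each other, shared a peak of 5672 bp with 38.0-fold enrichment (chr9:44977839-44983510). The 230-238 peak nearest to it lay 2154 bp away, inside a promoter window of Cd3d at a downstream TSS where both lines carried a peak, so that Cd3d counted as marked in both lines and Cd3g did not.

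Further along the receptor, Cd247, the zeta chain, had a peak of 24.9-fold and Ptcra, the pre-TCR alpha chain that pairs with the first rearranged beta chain, one of 16.6-fold. Among the kinases and adaptors, Themis stood at 27.2-fold and Lcp2, the adaptor SLP-76, at 20.8-fold. Zap70, the kinase that binds the phosphorylated zeta chain, had a Scid.adh.2C2-only peak over a TSS at 20.2-fold, whereas a promoter window of the gene also held a 230-238 peak of 18.8-fold on the scale of that list. Rasgrp1 belongs to the list by a flanking peak of 923 bp only, 186 bp from a 230-238 peak, while its strongest Scid.adh.2C2 peak reached 24.1-fold. Lat, Lck, Fyn, Grap2, Plcg1 and Vav1, which carry the signal onward, were marked in both lines with no such region.

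The T cell receptor loci themselves were partly covered. Of 270 annotated segments, 22 had a promoter window reached by a Scid.adh.2C2-only region, from 12 regions in all. Segments under the same region are not independent counts. Of all protein-coding genes, 1192 of 21938 (5.43%) had such a region. The strongest spanned the variable segments Trbv13-1, Trbv12-2 and Trbv13-2 (21.8-fold) and the segments Trbd2, Trbj2-1 to Trbj2-7 and Trbc2 of the beta locus (20.5-fold). In the alpha and delta locus, Trav17 stood at 17.9-fold, Trdv2-2 at 6.96-fold and Trdj2 at 6.59-fold. The nearest TSS was that of a T cell receptor segment at 12 of the 1642 regions (0.731%) and at 14 of the 3258 230-238-only promoters (0.430%), with overlapping intervals of 0.419% to 1.27% and 0.256% to 0.720%. An immunoglobulin segment was nearest at none of the 1642 regions and at 12 of the 230-238-only promoters.

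Among 33 transcription factors of the T-lineage, 10 had a Scid.adh.2C2-only promoter (30.3%, against 5.43% of all protein-coding genes). Of the 10, 9 had no 230-238 peak at any promoter (27.3% of the list, against 3.26% of all protein-coding genes). The most enriched peak was wider than the median of 1066 bp at 9 of these 10 genes, the exception being Tox2 with 704 bp and 6.01-fold. Bcl11b, a zinc finger factor needed for T-lineage commitment, carried the widest of all Scid.adh.2C2-only promoters at 9793 bp and 33.2-fold, with the nearest 230-238 peak 169578 bp away and an IDR score of 873, where 1000 marks the best agreement of a peak's rank between the replicates. Gata3 had 3 such regions, 1 of 9343 bp over its main promoter at 32.8-fold and 1 of 3572 bp upstream at 39.9-fold among them. Tox followed with 31.7-fold and 5004 bp, Gfi1 with 29.5-fold, Ikzf2 (Helios) with 28.4-fold and 5558 bp, and Satb1, a chromatin organizer of thymocytes, with 26.1-fold and 5088 bp. For Ikzf2 the nearest 230-238 peak was 1413542 bp away. Of the remaining factors, 20 were marked in both lines with no Scid.adh.2C2-only region, among them Tcf7, Runx1, Runx3, Lef1 and Myb, and Maf had a peak in neither. Of all protein-coding genes, 40.0% were marked in both lines in this way.

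Of 35 surface proteins of T cells, 11 had a Scid.adh.2C2-only promoter (31.4%, against 5.43% of all protein-coding genes). Of the 35, 7 were marked in Scid.adh.2C2 alone (20.0%, against 3.26% of all protein-coding genes). Thy1 stood at 38.6-fold over 4121 bp and Cd2, an adhesion receptor, at 30.4-fold over 3407 bp with no 230-238 peak within 314222 bp. Il2ra, the alpha chain of the interleukin 2 receptor that marks the DN2 and DN3 stages, reached 21.8-fold over 4764 bp. The peaks at Cd7 (7.88-fold), Cd96 (7.13-fold) and Cd226 (4.62-fold), by contrast, were among the weaker ones. Genes of later thymocytes and mature T cells, Cd4, Cd8a, Cd8b1, Cd28, Ctla4 and Icos, had a peak in neither line. Another 6 genes of the list were marked in 230-238 only (17.1%, against 5.97% of all protein-coding genes). These were Cd5, Cd6, Pdcd1, Slamf1, Slamf6 and Slamf7.

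The Notch pathway, which drives the T-lineage program, was mostly marked in both lines. Of 33 genes, 18 were marked in both lines with no Scid.adh.2C2-only region, as were 40.0% of all protein-coding genes. A Scid.adh.2C2-only promoter was found at 5 (15.2%, against 5.43% of all protein-coding genes). In Scid.adh.2C2 alone 3 were marked (9.09%, against 3.26%), and 3 in 230-238 alone (9.09%, against 5.97%). Dtx1, a ubiquitin ligase and target of Notch, stood out with 39.5-fold over 8548 bp, and the other 2 marked in Scid.adh.2C2 alone, Il2ra and Ptcra, are also in the lists above. Notch1 itself had a 230-238 peak of 19.6-fold at a promoter and 2 Scid.adh.2C2-only regions, of which the stronger reached 19.8-fold, covered no TSS and lay 16146 bp from the nearest 230-238 peak. Notch3 had only a narrow flanking peak of 387 bp, 32 bp from a 230-238 peak.

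Of 51 receptors for cytokines and chemokines, 7 were marked in Scid.adh.2C2 alone (13.7%, against 3.26% of all protein-coding genes) and 14 in 230-238 alone (27.5%, against 5.97%). Il17rb, a receptor chain for interleukin 25, had a peak of 9117 bp at 31.3-fold that also covered promoter windows of Chdh. Il12rb2 stood at 16.0-fold, Il9r at 14.7-fold, Ccr4 at 13.3-fold and Ccr9, which guides thymocytes and gut T cells, at 10.6-fold. Of 33 genes of natural killer and innate lymphoid cells, 6 had a Scid.adh.2C2-only promoter (18.2%, against 5.43% of all protein-coding genes). In this list 24 genes had a peak in neither line, while 48.5% of all protein-coding genes had none. Gzma, a granule protease, reached 28.9-fold over 4175 bp, Rora 25.8-fold and Tbx21, the factor T-bet, 22.3-fold.

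**Figure D4:**
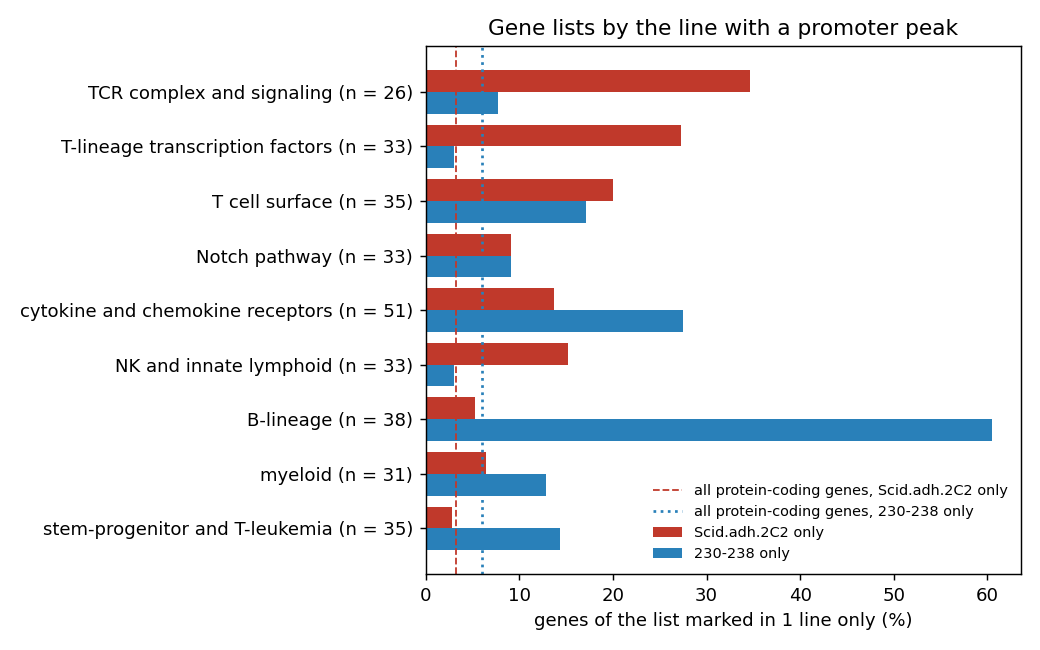
Percent of the genes of 9 lists (x axis) that were marked in Scid.adh.2C2 and not in 230-238 (red) or in 230-238 and not in Scid.adh.2C2 (blue), with the shares of all protein-coding genes as a dashed red line (3.26%) and a dotted blue line (5.97%). The red bar is longest for the TCR list (34.6%) and the blue bar for the B-lineage list (60.5%).

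Genes of other lineages were read against the 5.43% of all protein-coding genes with a Scid.adh.2C2-only promoter. In the B-lineage list the share was 5.26% (2 of 38 genes), and 23 genes were marked in 230-238 alone. It was 6.45% in the myeloid list and 2.86% in the list of stem cells, progenitors and T cell leukemia. The 2 B-lineage genes were Rag1 (16.5-fold, 3556 bp) and Rag2 (8.20-fold, 645 bp), the recombinase that both lymphoid lineages use to assemble their receptors, and neither had a 230-238 peak closer than 27799 bp. Cebpb (22.9-fold) and Fcgr3 (6.51-fold) were the 2 of 31 myeloid genes, and Angpt1 (26.3-fold), a ligand of the Tie2 receptor, was the only 1 of 35 genes of stem cells, progenitors and T cell leukemia. In that last list 23 genes had a peak in neither line, while 48.5% of all protein-coding genes had none. The 23 included Kit, Tal1, Lmo1, Tlx1 and Tlx3.

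Ordered by enrichment alone, the Scid.adh.2C2-only promoters were not led by T-lineage genes. The highest was Herpud1, a component of protein degradation at the endoplasmic reticulum, with 50.6-fold, followed by Rps18 together with Vps52 (45.4-fold), Nutf2, which imports Ran into the nucleus (43.2-fold), the noncoding gene 2810410L24Rik (43.0-fold), Tm7sf3 (41.8-fold), Rad9b together with Vps29 (41.8-fold) and the peptidase gene Pepd (41.7-fold). Cd3e came 8th. The rest of the 25 most enriched included Cdc42ep4, Fbxw9, Wls, a carrier of Wnt proteins (40.5-fold), Hpcal1, Nasp, a histone chaperone (39.2-fold), Bri3bp, the tubulin gene Tubb2b (38.3-fold) and the gap junction gene Gja1 (38.0-fold), besides Gata3, Dtx1 and Thy1. All 25 covered a TSS.

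An IDR score below 1000 was found at 190 of the Scid.adh.2C2-only promoters (11.6%), and 167 of these were in the weakest decile of the Scid.adh.2C2 promoter regions. In that decile, 24.9% of the Scid.adh.2C2-only and 16.9% of the shared regions had such a score. In the middle deciles, from 18.9-fold to 24.4-fold, it was none of the former and under 1% of the latter, while in the strongest decile it was 13.6% (6 of 44 regions) and 8.92%. Of the 25 most enriched Scid.adh.2C2-only promoters, 5 had a score below 1000, namely Herpud1 (572), Nutf2 (590), Rad9b with Vps29 (566), Nasp (673) and Bri3bp (592). Over the whole set, 88.4% of the Scid.adh.2C2-only promoters and 97.2% of the shared ones had the highest score. The part of the replicate filter in the lack of a 230-238 peak was not tested.

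The 10 widest Scid.adh.2C2-only promoters included those of Bcl11b, Gata3, Il17rb, Dtx1 and Cd3d with Cd3g. The others lay at Gm16157, an antisense gene beside Fam169b (7668 bp, 36.0-fold), Inava (6920 bp, 23.9-fold), Nrp1, a semaphorin and growth factor co-receptor (5931 bp, 23.3-fold), B130024G19Rik beside the nuclear receptor gene Nr2f2 (5749 bp, 36.6-fold) and Hdac7, a class IIa histone deacetylase of thymocytes (5665 bp, 22.3-fold). The region at Nr2f2 was 2717253 bp from the nearest 230-238 peak. Of these 10 regions, 9 had the highest IDR score.

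Gene families outside the lymphoid lists were read against the same backgrounds of 5.43% and 3.26%. In the developmental transcription factor families, such as Sox, Fox and Irx, 12 of 153 genes (7.84%) had a Scid.adh.2C2-only promoter. Apart from Gata3, these included Foxb1 (31.6-fold, 4886 bp), Dlx2 (27.7-fold), Irx1 (27.7-fold, 4566 bp) and Lhx8 (23.7-fold), which pattern organs of the embryo, and each of these covered a TSS. Of 39 Hox genes, Hoxc6 (17.5-fold) and Hoxd12 (11.3-fold) had a peak of this kind beside the TSS. Voltage-gated and potassium channel genes had 10 of 138 (7.25%), led by Cacna2d2 (30.7-fold), while solute carriers had 12 of 371 (3.23%), led by the cystine transporter Slc7a11 (36.3-fold).

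Zinc finger genes of the Zfp series were found 38 times among 394 (9.64%), 26 of them marked in Scid.adh.2C2 alone (6.60%) and 23 in 230-238 alone (5.84%). Zfp799 (40.3-fold), Zfp362 (39.7-fold) and Zfp606 (38.8-fold) were among the 25 most enriched regions. Zfp799, Zfp870 (36.9-fold), Zfp472 (27.1-fold), Zfp763 (25.0-fold) and Zfp563 (30.4-fold, with a second region of 20.3-fold) lie within one cluster, and the regions of these values fell between positions 32829061 and 33093827 of chromosome 17. The 230-238 peak nearest to any of these 6 regions was 16791 bp away, beside Zfp472. Of the cytosolic ribosomal protein genes, 67 of 79 were marked in both lines with no Scid.adh.2C2-only region, and 7 had such a region, of which Rps18 (45.4-fold), Rpl35 (31.2-fold) and Rpl41 (29.0-fold) had no 230-238 peak at any promoter. Semaphorins, ephrins and their receptors had 6 of 55 (10.9%), with Sema4c at 36.2-fold. The TNF superfamily had 5 of 31 (16.1%), integrins 3 of 31 (9.68%), tyrosine phosphatases 3 of 38 (7.89%) and protocadherins and cadherins 3 of 96 (3.12%).

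The promoters of the Scid.adh.2C2-only regions held fewer CpGs than shared ones. By the CpG content around the TSS nearest to the summit, 35.1% were of the high class, 26.7% intermediate and 38.2% low (interval 35.9% to 40.6%). Shared promoters were 76.4% high and 7.35% low, 230-238-only promoters 32.0% high and 43.2% low, and the most upstream TSSs of all protein-coding genes 43.3% high and 36.7% low. The values for the regions use the nearest TSS of any gene type, so they are not fully like those of protein-coding genes. With TSSs of protein-coding genes only, 29.4% of the Scid.adh.2C2-only promoters were of the low class. Enrichment followed the class, with a median of 16.7-fold in the high, 13.0-fold in the intermediate and 9.26-fold in the low class of the Scid.adh.2C2-only promoters. Within the low class, the shared promoters had a median of 16.0-fold. Of the 13 TCR list genes with a Scid.adh.2C2-only promoter, 10 had their most enriched region at a promoter of the low class, among them Cd3d, Cd247, Themis and Ptcra, 2 including Cd3e at the intermediate and Rasgrp1 at the high class. Among the 10 T-lineage factors, 5 were of the high class (Bcl11b, Tox, Satb1, Rora and Ets1), 3 of the intermediate (Gata3, Gfi1 and Tox2) and 2 of the low class (Ikzf2 and Tcf12). For Gata3 this class was read at the TSS of 9230102O04Rik, and the region over its main promoter was also of the intermediate class.

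**Figure D5:**
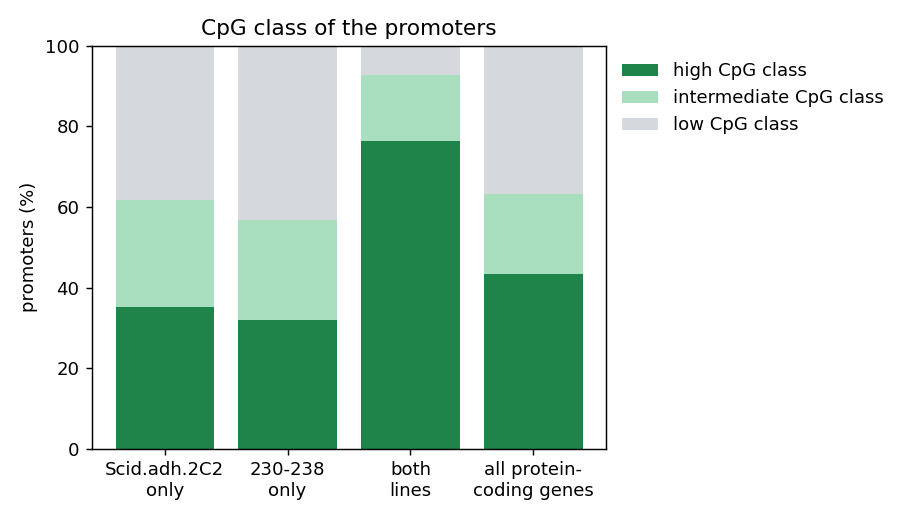
Percent of promoters (y axis) in the high (dark green), intermediate (light green) and low (gray) CpG class for promoter regions with peaks of Scid.adh.2C2 only, of 230-238 only and of both lines, and for the most upstream TSS of all 21938 protein-coding genes. The low class makes up 38.2%, 43.2%, 7.35% and 36.7%. The regions use the nearest TSS of any gene type, unlike the last bar.

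The annotation at the regions differed in the same way. The nearest TSS belonged to a protein-coding gene at 75.3% of the Scid.adh.2C2-only promoters and at 92.8% of the shared ones, to a long noncoding gene at 14.2% and 4.39%, and to a pseudogene at 4.51% and 0.796%. In the 230-238-only promoters these shares were 76.2%, 13.2% and 4.27%. TSSs of 2 genes on opposite strands within 1000 bp were found at 9.20% of the Scid.adh.2C2-only and 22.0% of the shared promoters. By these measures the regions seen in one line alone resembled each other, whichever the line.

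Short sequence motifs were counted on both strands in the 300 bp at the summit. The letters AGATAA, bound by GATA3 and its relatives, were in 13.2% of the Scid.adh.2C2-only promoters (interval 11.6% to 14.9%), in 8.13% of the shared and in 12.1% of the 230-238-only promoters. In the Scid.adh.2C2-only promoters the share was 9.03% in the high, 10.7% in the intermediate and 18.7% in the low CpG class (interval of the last 15.8% to 21.9%). In the low class, it was 11.5% of the shared and 12.7% of the 230-238-only promoters. In the 250 bp before to 49 bp after the nearest TSS, a window added after the values at the summit were known, the shares in the low class were 16.6%, 11.8% and 12.7%, and over the most upstream promoters of all protein-coding genes 10.2% held the motif.

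CTTTGA, bound by TCF1 and LEF1, was in 17.0% of the Scid.adh.2C2-only, 13.3% of the shared and 16.8% of the 230-238-only summit windows, and TGTGGT, a RUNX site, in 19.5%, 15.2% and 21.4%. The E box letters CAGCTG or CAGGTG, bound by E proteins, were in 39.0%, 34.9% and 39.9%. CCGGAAG, an ETS site that contains a CpG, was in 3.71%, 6.39% and 2.30%, and CCCNNGGG, the core of the EBF1 site, in 13.0%, 17.2% and 15.3%. In the low CpG class, the shares in the same 3 sets were 19.3%, 17.6% and 19.3% for CTTTGA and 22.3%, 25.0% and 25.8% for TGTGGT. For the E box letters they were 38.9%, 41.6% and 43.0%. For CCGGAAG they were 3.03%, 4.92% and 1.63%, and for CCCNNGGG 9.73%, 12.4% and 13.6%. Over all CpG classes, in the window at the nearest TSS, the shares of these 5 motifs, in the order given, were 16.1%, 17.6%, 36.0%, 8.28% and 16.2% for the Scid.adh.2C2-only promoters. For the 230-238-only promoters they were 15.5%, 17.5%, 36.6%, 5.95% and 17.6%. The same window at the most upstream TSS of all protein-coding genes gave 15.8%, 15.3%, 32.8%, 10.8% and 15.8%. The Cd3e promoter printed above holds CAGGTG on the opposite strand. The window printed for the upstream Gata3 peak, at the TSS of 9230102O04Rik, holds CCGGAAG. The Thy1 and Rps18 windows hold none of the 6 motifs. At the summit, the overall shares of both one-line sets lay within 2 percentage points of each other for each of the 6 motifs but CCCNNGGG. For the rarest motif, CCGGAAG, the intervals of the 2 sets still did not overlap. They were 2.90% to 4.74% for Scid.adh.2C2-only and 1.84% to 2.88% for 230-238-only promoters. In the window at the nearest TSS they were 7.04% to 9.72% and 5.19% to 6.82%.

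Some genes carried a Scid.adh.2C2-only peak over a TSS besides a promoter marked in both lines. Whether transcription starts at such a TSS was not tested, as a peak alone does not show it. The counts that follow were not made for other sets of promoters. Of the 732 protein-coding genes with a TSS inside a Scid.adh.2C2-only region, 89 had another TSS inside a shared region, at a median distance of 17789 bp, and for 75 the distance exceeded 5000 bp. Tcf12, which encodes the E protein HEB, had a Scid.adh.2C2-only peak of 24.6-fold at a TSS 213635 bp downstream of the one in a shared region (20.0-fold in Scid.adh.2C2). At Arhgef3 the distance was 221167 bp (20.2-fold and 23.6-fold), at Hdac7 12397 bp (22.3-fold and 17.5-fold) and at Sla, an adaptor that dampens TCR signaling, 11000 bp (17.9-fold and 12.8-fold). Nfkb1, named here after its values were seen, had 97105 bp between a Scid.adh.2C2-only promoter of 24.6-fold and a shared one of 25.6-fold.

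Another Scid.adh.2C2-only promoter lay within 1000 bp at 325 of the 1642 regions (19.8%) and within 100000 bp at 776 (47.3%). The same count was not made for other promoter regions, so whether these regions cluster was not tested. Of the 1192 genes, 173 had 2 or more such regions and 35 had 3 or more, with Ms4a6b at 5 and Chdh, Rxra and Siae at 4 each. Such neighbors share a gene or locus and are not independent. Across the chromosomes, the regions made up from 8.42% of the merged promoter regions on chromosome 8 to 16.5% on chromosome 12, and none lay on the Y chromosome.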

How the data were processed

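H3K4me3 ChIP-seq of Scid.adh.2C2 and 230-238 was analysed from 1 deposited peak list per line. The authors trimmed the reads (Trim Galore 0.6.7), mapped them to mm10 (Bowtie2 2.4.4), called narrow peaks against input (MACS2 2.2.7.1, q threshold 0.05) and kept the optimal set at an irreproducible discovery rate (IDR) of 0.05 between replicates. The fold enrichment ratio, the −log10 p-value, the IDR score and the summit offset are deposited values of the authors and were used as such, each only within its list. Depth is unknown.

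Peaks were merged at 1 bp of overlap and set against 132721 GENCODE M21 gene and TSS pairs. Regions were named by the TSS nearest to the summit, protein-coding first within 500 bp. CpG classes used 500 bp windows in steps of 5 bp from 900 bp before to 400 bp after the TSS: high above a CpG ratio of 0.75 and 55% GC, low where no window passed 0.48. Sequence came from RefSeq GRCm38. The members, gene lists and families were chosen with earlier results of these data known. Genes named are the 25 most enriched and 10 widest regions, the nearest to each border, and the most enriched of each list. Sequences are shown at the TSS, not at the summit as first planned, to keep transcribed bases short. Some genes of the lists are not reported here. Functions were tested on simulated regions. The software was Python 3.11.15 with matplotlib 3.10.9, scipy 1.17.1, pandas 2.3.3 and numpy 2.4.6.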

Additional observations from a re-analysis of the deposited data

How the results depend on the processing

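The 6 summary values were recomputed under 8 alternatives, 28 of 48 values stayed within 1.5 times (counts) or within the interval of the main value (11.0 to 12.2 for the median fold enrichment, 1006 to 1135 bp for the median width, 35.9% to 40.6% for the low CpG share), and 20 moved. With only Scid.adh.2C2 peaks of at least 10-fold, 947 of 1642 regions remained by construction, with a median enrichment of 18.6, a width of 1625 bp and 28.8% in the low CpG class. A window of 1000 bp gave 13.4-fold, 1226 bp and 34.4%, and one of 5000 bp gave 10.5-fold, 963 bp and 42.6%. Joining peaks up to 1000 bp apart gave 13.8-fold, 1413 bp and 41.2%, and peaks with an IDR score of 1000 gave 13.1-fold, 1193 bp and 35.3%. With TSSs of protein-coding genes only the values were 13.0-fold, 1156 bp and 29.4%, and with equal numbers of peaks the width was 978 bp. The cause of these shifts was not tested. The number of genes marked in Scid.adh.2C2 and not in 230-238 ranged from 585 to 806, around 715. In counts added after the data were seen, the TCR list held 10 to 14 genes, the T-lineage factors 9 to 12 and the T cell surface list 7 to 13. No paired analysis was possible because each list combines the replicates of its line, and for the same reason no replicate could be left out.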
